A study of Mus musculus with 95 samples.

Results

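The core circadian clock genes were followed in mouse liver across 3 drugs that cause fatty liver. The genes were chosen by name, with earlier results of these data known, and all of them are reported whatever their values. They are transcription factors and repressors that make up the clock's feedback loops. The activators are Arntl (also called Bmal1), Clock and Npas2. The repressors are Per1, Per2, Per3, Cry1, Cry2 and the receptors Nr1d1 (Rev-erb alpha) and Nr1d2 (Rev-erb beta). They are 10 of the 16464 genes with a level, and each was read by 1 probe set. Each treated group was set against its own vehicle of the same day, and the vehicles were also compared between days and with each other.

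The livers came from male C57BL/6 mice, 10 weeks old and 21 to 27 g in weight, dosed by oral gavage and sampled on day 1, 4 or 11. Amiodarone (an antiarrhythmic, here AMD) was given at 60 mg/kg on all 3 days and also at 6.7 and 20 mg/kg on day 11. Valproic acid (an antiepileptic that also inhibits histone deacetylases, here VPA) was given at 500 mg/kg on all 3 days and at 125 and 250 mg/kg on day 11, and tetracycline (an antibiotic, here TET) at 133 mg/kg on all 3 days and at 14.8 and 44 mg/kg on day 11. Mice of the AMD and VPA arms shared a PBS vehicle, and TET had a vehicle of its own, water with ascorbic acid. There are 21 groups and 95 arrays, with 4 in a group of day 1 or 4 and 5 in a group of day 11. Whether every array comes from its own animal is not stated, so the p-values below measure the spread between these samples, which may be technical. They also give no time of day for dosing or dissection, on which clock transcripts depend, so a difference in sampling time between groups was not tested.

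The mammalian clock is a feedback loop of transcription. ARNTL pairs with CLOCK, or with its relative NPAS2, and the pair switches on genes that carry an E-box, among them the Per and Cry genes, whose proteins return to the nucleus and repress the pair. The pair also switches on Nr1d1 and Nr1d2, nuclear receptors that bind ROR elements and repress Arntl, Clock and Npas2, and the factors DBP, TEF and HLF, which act through D-boxes that the repressor NFIL3 also binds. In liver, Arntl, Clock and Npas2 RNA peak at the opposite time of day from Nr1d1 and Dbp, and the loop drives daily rhythms of glycogen, bile acid and lipid genes.

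Some of the elements that tie the members to each other can be read in the promoters of some of them, and are shown because they name inputs that the results below refer to. RefSeq windows on GRCm38.p6, from 250 bases before to 50 bases after each start site, matched 9 members by symbol, all but Per2. Both strands were searched for 3 exact motifs that do not overlap in these windows. The E-box CACGTG was present in the windows of Per1 and Cry1 and in 7.15% of all 32851 windows. The D-box TTATGTAA was present in that of Per3, at 2 places, and in 0.938% of all windows. The ROR element TAGGTCA was present in that of Arntl and in 2.61% of all windows. The windows of Clock, Npas2, Cry2, Nr1d1 and Nr1d2 held no match to any of the 3 motifs. The stretches below run 5′ to 3′ along each gene, with the motif in capitals. That of Per1 lies at chr11:69098763-69098808 on the plus strand, that of Cry1 at chr10:85185089-85185134 on the minus strand and that of Per3 at chr4:151044804-151044882 on the minus strand, all upstream of the start site. That of Arntl, at chr7:113207532-113207556 on the plus strand, lies just inside the transcribed part. A match is a description of these letters and shows no binding.
Per1: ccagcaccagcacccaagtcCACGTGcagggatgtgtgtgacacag
Cry1: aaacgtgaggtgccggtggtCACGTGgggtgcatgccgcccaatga
Per3: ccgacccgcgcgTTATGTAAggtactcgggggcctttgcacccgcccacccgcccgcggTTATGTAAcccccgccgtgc
Arntl: ggcagaaagTAGGTCAgggacggag

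All levels are deposited log2 values, and a difference of 1 is a 2-fold change. The array medians ran from 3.08 to 3.15, so a gene below that range is near the background of its array and its fold change is a lower bound. Npas2 was below the array median on all 95 arrays, Arntl on 86 and Per3 on 71, while Clock, Per1, Cry2 and Nr1d2 were above it on every array. Albumin and 4 other hepatocyte markers lay between 11.65 and 13.87 on all arrays, while Adipoq and Lep of adipose tissue and Cpa1 of exocrine pancreas were below the array median throughout. The other measured exocrine pancreas marker, Cela1, read 6.09 to 7.93 and was above it on every array. In whole liver, fewer cells of a type and less RNA per cell cannot be told apart.

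Among the activators, Arntl had its highest group mean with VPA 500 mg/kg on day 1 (3.46 ± 0.67, SD, n = 4) and its lowest in the TET vehicle on day 11 (2.50 ± 0.18, n = 5). Clock was also highest with VPA 500 mg/kg on day 1 (5.51 ± 0.23, n = 4) and lowest with TET 133 mg/kg on day 1 (4.52 ± 0.15, n = 4). Npas2, the stand-in partner of ARNTL, spanned only 0.13 between its highest and lowest group means, from 2.43 ± 0.12 to 2.56 ± 0.11. VPA 500 mg/kg on day 1 therefore stood at the top for both partners of the main activator pair.

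Among the repressors, Per1 ran from 6.07 ± 0.18 in the TET vehicle on day 1 to 4.80 ± 0.20 in the same vehicle on day 4 (n = 4 each), so its extremes both came from mice that received no drug. Per2 ran from 4.47 ± 0.13 with TET 44 mg/kg to 3.40 ± 0.27 with AMD 60 mg/kg, both on day 11 (n = 5). Per3 ran from 3.19 ± 0.14 in the TET vehicle on day 1 to 2.77 ± 0.08 with VPA 500 mg/kg on day 1. The extremes of Cry1 both came from amiodarone on day 11, at 4.35 ± 0.19 with 20 mg/kg and 3.37 ± 0.26 with 60 mg/kg. Cry2 ran from 5.68 ± 0.21 with VPA 500 mg/kg to 5.15 ± 0.18 with AMD 6.7 mg/kg, both on day 11. Of the receptors, Nr1d1 ran from 4.91 ± 0.58 with VPA 500 mg/kg on day 11 to 3.61 ± 0.40 with TET 44 mg/kg on day 11. Nr1d2 ran from 8.24 ± 0.11 in the TET vehicle on day 1 to 7.63 ± 0.14 with VPA 500 mg/kg on day 1.

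When the 21 group means of a gene were put in order, almost no neighbours differed by more than their pooled SD. Of 20 neighbouring pairs a gene, 2 did so for Nr1d2, 1 for Per1, 1 for Per2 and 0 for each of the other 7 genes. The exceptions were at the ends of the order. Nr1d2 with VPA 500 mg/kg on day 1 stood 0.18 below AMD 60 mg/kg on day 11, which stood 0.12 below the PBS vehicle of day 11. Per1 in the TET vehicle on day 4 stood 0.33 below its neighbour, and Per2 with TET 44 mg/kg stood 0.23 above its neighbour.

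Most members varied widely between arrays of 1 group. The residual SD of Nr1d1 was 0.41, wider than that of 98.9% of all genes, and those of Per1 (0.32), Per2 (0.29), Cry1 (0.27) and Arntl (0.25) were wider than those of 97%, 95.8%, 94.8% and 92.6%. Cry2 (0.21) and Clock (0.20) were at the 83.8 and 80.2 percentiles. Nr1d2, Per3 and Npas2 were steadier, with residual SDs of 0.13, 0.14 and 0.08 at the 35.2, 37 and 3.6 percentiles, the last 2 being dim on most arrays. Nr1d2 thus varied less between arrays of a group than its relative Nr1d1.

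When the 15 treated groups were each set against vehicle, 7 of the 150 tests of a member passed an adjusted p of 0.05 (limma, Benjamini-Hochberg over all 16464 genes). They fell in 3 comparisons, VPA 500 mg/kg on days 1 and 4 and AMD 60 mg/kg on day 4. The plot of treated minus vehicle differences shows all of them.

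**Figure D1:**
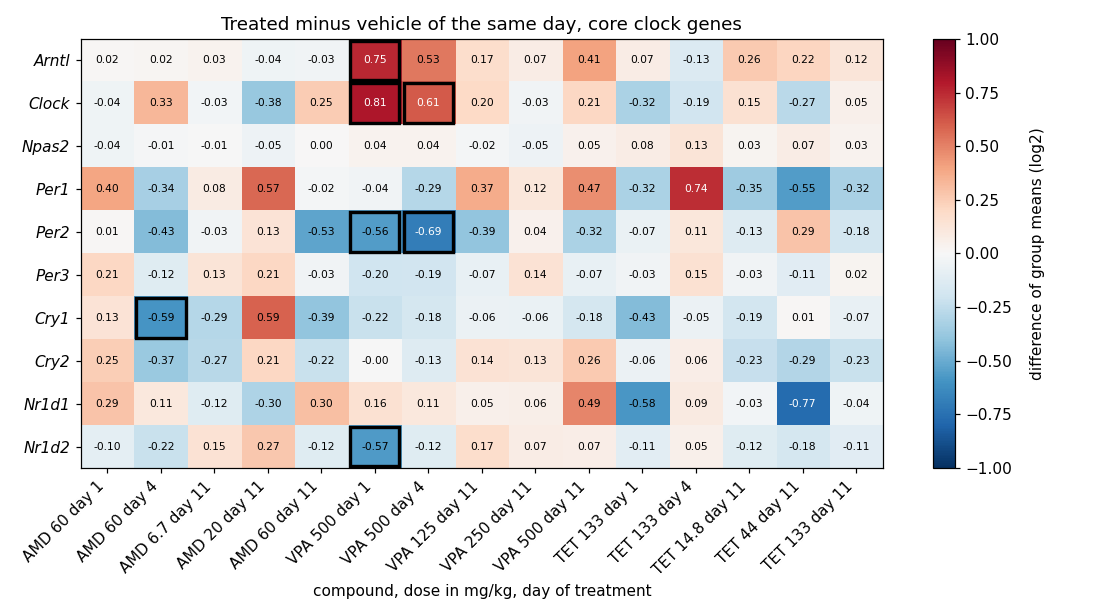
Difference of group means, treated minus vehicle of the same day, on the log2 scale (red higher, blue lower), for the 10 clock genes in rows and the 15 treated groups in columns (compound, dose in mg/kg, day). Black frames mark the 7 tests with an adjusted p under 0.05, of which 4 are in VPA 500 mg/kg on day 1.

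With VPA at 500 mg/kg on day 1, both partners of the main activator pair were higher, and a Per gene and a Rev-erb gene were lower. Of the 10 members, 2 rose (Arntl and Clock) and 2 fell (Per2 and Nr1d2), against 15.7% of all genes called in this comparison. The members' median absolute difference was 0.21 and that of all genes 0.11. The signed medians were -0.02 and 0.01.

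Arntl on the 4 VPA arrays read 4.37, 3.43, 3.27 and 2.78, and on the 4 PBS arrays 2.93, 2.74, 2.63 and 2.53. The groups overlapped, since the lowest VPA array was below the highest PBS array, and 1 VPA array stood well above the rest. Arntl rose by 0.75 (SE 0.17, 1.69-fold, adjusted p = 0.00063, limma). Without the highest VPA array, numbered 023 in the labels, the difference was 0.45 with an adjusted p of 0.05, just past the threshold, and in a model of these 8 arrays alone its adjusted p was 0.13.

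Clock, the partner of ARNTL and itself a histone acetyltransferase, read 5.82, 5.53, 5.37 and 5.32 with VPA and 5.01, 4.79, 4.60 and 4.41 with PBS. Every VPA array was above every PBS array, an arrangement that 13.9% of all genes showed here in either direction. Clock rose by 0.81 (SE 0.14, 1.75-fold, adjusted p = 2.9e-06, limma). The rise passed the threshold without each of the 8 arrays in turn and under all 7 other settings tried. Npas2, by contrast, differed by 0.04 with a 95% interval from -0.09 to 0.16, at a level near background.

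Among the Per and Cry genes only Per2, which is also induced by glucocorticoids and temperature, passed the test. It read 3.96, 3.90, 3.44 and 3.34 with VPA and 4.58, 4.20, 4.20 and 3.91 with PBS. The groups overlapped by 1 array on each side. Per2 fell by 0.56 on the log2 scale (SE 0.20, 1.47-fold lower, adjusted p = 0.041, limma). The call was lost without any of 5 of the 8 arrays (PBS 003, 050 and 082, VPA 079 and 080), with differences from -0.57 to -0.44 and adjusted p values up to 0.18, in a model of these 8 arrays alone (adjusted p = 0.074) and with sample numbers as a block (-0.54, adjusted p = 0.051).

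The other Per and Cry genes did not pass. Per3 differed by -0.20 (95% interval -0.39 to -0.01, adjusted p = 0.17), Per1 by -0.04 (-0.47 to 0.40) and Cry2 by 0.00 (-0.29 to 0.28). Cry1 read 4.65 on VPA array 023 and 3.43, 3.29 and 3.21 on the other 3 VPA arrays, against 3.73 to 3.97 with PBS, so that all VPA arrays but 1 lay below all PBS arrays. Its difference was -0.22 (-0.60 to 0.15, adjusted p = 0.54), and without array 023 it was -0.56 with an adjusted p of 0.021. The array with the highest Arntl was thus also the array with the highest Cry1.

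Nr1d2, a repressor of Arntl and Clock, read 7.83, 7.62, 7.54 and 7.52 with VPA and 8.38, 8.31, 8.09 and 8.00 with PBS. Every VPA array was below every PBS array. Nr1d2 fell by 0.57 on the log2 scale (SE 0.09, 1.48-fold lower, adjusted p = 2.1e-06, limma), and passed without each array in turn and under all 7 other settings. Its relative Nr1d1 differed by 0.16 with a wide interval from -0.41 to 0.72.

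**Figure D2:**
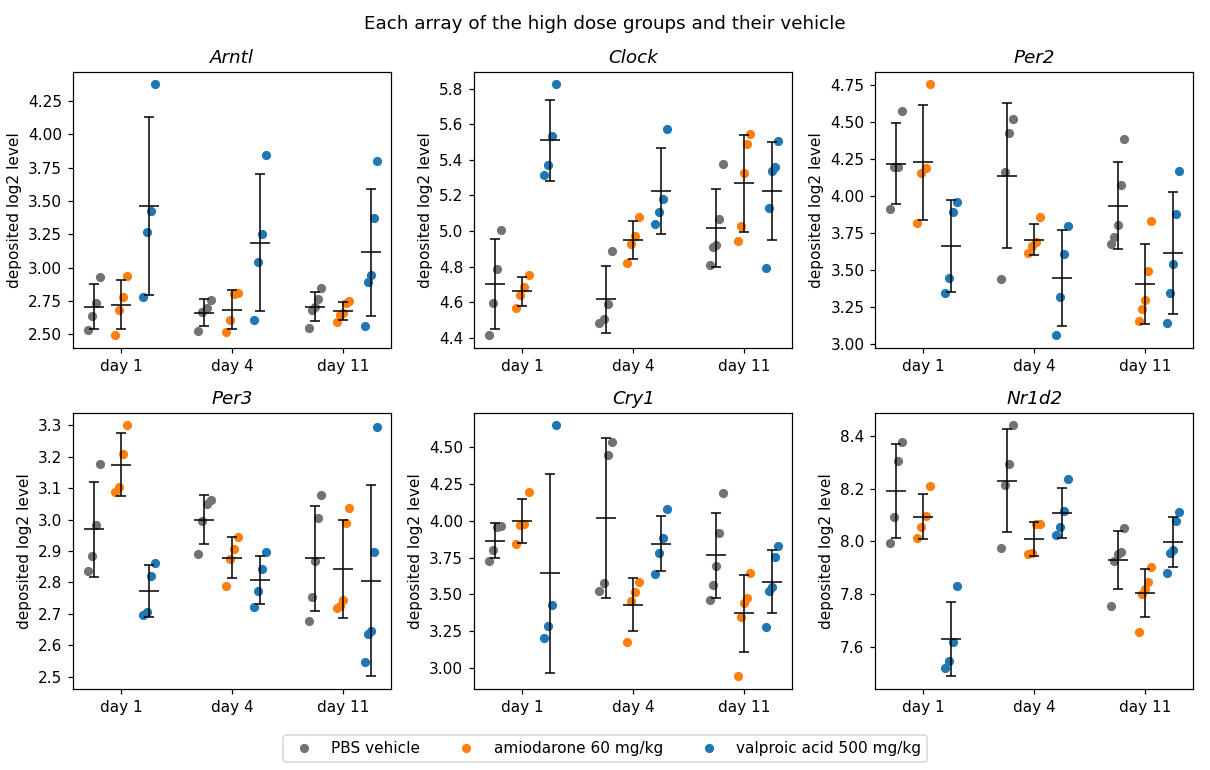
Deposited log2 level of 6 clock genes on each array of the PBS vehicle (grey), AMD 60 mg/kg (orange) and VPA 500 mg/kg (blue) on days 1, 4 and 11. Each point is an array, and bars give the mean and SD of 4 (days 1 and 4) or 5 (day 11) arrays. Clock with VPA on day 1 lies above, and Nr1d2 below, every PBS array of that day.

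Genes downstream of the clock changed as well, where 15.7% of all genes were called. Their lists, and those of the next paragraphs, were chosen with earlier results of these data known, so the counts are a description. Of 4 output factors, Dbp and Tef fell by 1.53 and 0.58 on the log2 scale (adjusted p = 1.5e-12 and 1.7e-06, limma) and Nfil3, which represses the same D-boxes, rose by 1.75 (adjusted p = 1.9e-09). Dbp read 7.13 to 8.40 with VPA and 8.86 to 9.35 with PBS, and Nfil3 read 5.89 to 6.72 with VPA and 4.46 to 4.87 with PBS, without overlap in either case. The median over the 4 factors was -0.45, against 0.01 over all genes.

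Of 10 measured clock-controlled liver genes, 7 fell, 0 rose, and the median was -1.23, where 15.7% of all genes were called. Rgs16, a regulator of G protein signalling, fell by 3.76 on the log2 scale (adjusted p = 7.5e-10). Cyp7a1, the rate-limiting enzyme of bile acid synthesis, fell by 1.95 (adjusted p = 0.0011), and Gys2, the liver glycogen synthase, fell by 1.67 (adjusted p = 1.6e-17, limma for all 3). Rgs16 read 2.85 to 3.65 with VPA and 6.05 to 8.16 with PBS.

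Of 8 measured accessory regulators, 2 fell and 1 rose, where 15.7% of all genes were called. Ciart, a repressor of the ARNTL and CLOCK pair, fell by 1.51 (adjusted p = 0.0011), Bhlhe40, another E-box repressor, fell by 0.65 (adjusted p = 0.021) and Timeless rose by 0.38 (adjusted p = 0.0017, limma). Of 9 measured kinases, ligases and the deubiquitinase, only Usp2, a rhythmic deubiquitinase, passed and fell by 2.07 (adjusted p = 8.8e-10). Of 7 corepressors, coactivators and chromatin partners only Tbl1xr1, a subunit of the NCOR complex, passed and rose by 0.39 (adjusted p = 1.9e-05). The 1 called of 9 and the 1 called of 7 lie near the share of all genes called.

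Some genes of 4 other lists were called on that day, where 15.7% of all genes were. Of 10 glucocorticoid-responsive genes 3 rose and 0 fell, with a median of 0.26. They were Lcn2 (7.19, adjusted p = 1.4e-07), Mt2 (5.74, adjusted p = 3.3e-07) and Ddit4 (1.20, adjusted p = 8.3e-06, limma), of which Lcn2 is also an acute phase gene, Mt2 a metal-binding gene and Ddit4 a stress gene. Of 10 feeding and fasting genes 2 fell (Angptl4 by 0.90 and Cpt1a by 0.48), of 8 immediate early genes 2 rose (Junb 1.06, Btg2 0.82) and 2 fell (Jun by 1.25 among them), and of 6 temperature and heat shock genes 2 fell (Hspa1b by 1.66, Dnajb1 by 0.44).

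Markers of other cells moved with the group too, again where 15.7% of all genes were called. Both measured neutrophil markers, S100a8 and S100a9, rose (median 2.28), and their mean read 3.83, 4.61, 6.44 and 6.91 on the VPA arrays and 3.12 to 3.24 on the PBS arrays. The VPA array with the lowest neutrophil mean, 095, also had the lowest Arntl and Clock, but the highest Nr1d2, of its group. None of 6 Kupffer cell, 4 lymphocyte or 4 cholangiocyte markers passed, while 1 of 5 endothelial markers rose, and of 6 stellate cell and fibroblast markers 1 rose and 2 fell. Of 5 hepatocyte markers 1 rose and 2 fell (median -0.14), and 1 of 2 exocrine pancreas markers fell. The erythrocyte marker Alas2 did not pass, at -0.53, but read 6.89 to 7.63 with VPA and 7.77 to 7.99 with PBS, without overlap. The part of these cells in the clock differences was not tested.

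On day 4 of VPA at 500 mg/kg, Clock was still higher and Per2 lower, and no other member passed. The members called were 2 of 10, against 2.36% of all genes. The median over the members was -0.13 and that over all genes 0.00.

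Clock read 5.57, 5.18, 5.10 and 5.04 with VPA and 4.89, 4.59, 4.50 and 4.48 with PBS, again without overlap, as for 7.5% of all genes. It rose by 0.61 (SE 0.14, 1.53-fold, adjusted p = 0.0036, limma), and by 0.49 with an adjusted p of 0.066 without VPA array 004. Per2 read 3.80, 3.61, 3.32 and 3.06 with VPA and 4.52, 4.43, 4.17 and 3.44 with PBS. One PBS array lay among the VPA arrays.

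Per2 fell by 0.69 on the log2 scale (SE 0.20, 1.62-fold lower, adjusted p = 0.039, limma). The call was lost without any of 6 of the 8 arrays (PBS 040, 041 and 044, VPA 004, 068 and 092), with differences from -0.75 to -0.56 and adjusted p values up to 0.23, and in a model of these 8 arrays alone (adjusted p = 0.20). Arntl read 3.85, 3.25, 3.04 and 2.61 with VPA and 2.52 to 2.76 with PBS, so that 3 of the 4 VPA arrays were above all PBS arrays. Its difference of 0.53 (95% interval 0.18 to 0.87) had an adjusted p of 0.094, and without VPA array 008, the lowest, it was 0.72 with an adjusted p of 0.01. Nr1d2 differed by -0.12 (-0.31 to 0.06). Per1 read 5.45 to 5.56 with VPA, below the range of 5.69 to 6.07 with PBS, but its difference of -0.29 (-0.72 to 0.15) did not pass.

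Some output genes of the same lists, chosen with earlier results known, fell on day 4 as well, where 2.36% of all genes were called. Of the 4 output factors 2 fell, Dbp by 0.79 (adjusted p = 9e-04) and Hlf by 0.52 (adjusted p = 0.048), and of 10 clock-controlled liver genes 3 fell, Rgs16 by 2.46 (adjusted p = 0.00033), Gys2 by 0.78 (adjusted p = 3.5e-05) and Wee1, a cell cycle kinase with E-boxes, by 0.77 (adjusted p = 0.00095, limma). Ciart fell by 1.77 (adjusted p = 0.001) and Usp2 by 0.92 (adjusted p = 0.032). Array 004, which had the highest Arntl and Clock and the lowest Per2 of its group, also had the lowest Dbp (7.84) and the lowest Wee1 (3.50), while array 008, with the lowest Arntl, had the highest Dbp (9.03) and Wee1 (4.39). Beside these, 2 of 6 Kupffer cell markers rose (median 0.63), 3 of 10 glucocorticoid-responsive genes rose (Lcn2 4.79, Mt2 3.58 and Zbtb16 0.97) and the neutrophil mean read 3.66 to 4.09, within the PBS range of 2.96 to 4.31. The erythrocyte marker Alas2 fell by 0.91, and 1 of 5 endothelial and 1 of 6 stellate cell and fibroblast markers rose. Their part in the clock differences was not tested.

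On day 11 of VPA at 500 mg/kg no member passed, although 9.03% of all genes did, and 3 members had an unadjusted p under 0.05. Arntl read 3.80, 3.37, 2.94, 2.89 and 2.56 with VPA and 2.85, 2.76, 2.70, 2.68 and 2.55 with PBS. Of the 5 VPA arrays, 4 were above all PBS arrays. The difference was 0.41 (95% interval 0.10 to 0.71, adjusted p = 0.091), and without VPA array 028, the lowest, it was 0.54 with an adjusted p of 0.018.

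Array 028 stood apart in other members of the loop too, with the lowest Clock (4.79) and the highest Per2 (4.17) and Per3 (3.30) of its group. At the other end, array 049 had the highest Arntl and Clock, the lowest Per2 (3.14), the lowest Dbp (8.04) and the lowest Wee1 (3.15). Day 1 did not show this arrangement. There array 023, with the highest Arntl, had the highest Per2 (3.96) and the highest Wee1 (3.63) of its group. Its Dbp (7.48) was above that of array 079 (7.13). On each of the 3 days the VPA array with the highest Arntl also had the highest Lcn2 of its group. The lead was narrow on day 1 (12.63, the others 12.16 to 12.58) and day 4 (10.21, the others 9.44 to 10.04). On day 11 that array read 10.95, where the other 4 arrays read 3.61 to 7.53. The part of an acute phase response in Arntl was not tested. Per1 differed by 0.47 (0.08 to 0.86, adjusted p = 0.14), and by 0.61 with an adjusted p of 0.045 without PBS array 073, while Cry2 differed by 0.26 (0.00 to 0.51, adjusted p = 0.24) and Nr1d1 by 0.49 (-0.02 to 1.00, adjusted p = 0.27). Clock differed by 0.21 (-0.04 to 0.45) and Per2 by -0.32 (-0.67 to 0.04). Of the output genes, only Wee1 passed and fell by 0.54 (adjusted p = 0.0054), and of the chromatin partners only Hdac3, the deacetylase recruited by the Rev-erb receptors, passed and rose by 0.39 (adjusted p = 0.0015, limma), both named after their values were seen.

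The lower doses of VPA on day 11 gave no called member. At 125 mg/kg 0.0547% of all genes passed, and at 250 mg/kg 4.26%. At 125 mg/kg Per2 read 3.33 to 3.68, touching but not crossing the PBS range of 3.68 to 4.38, where 1.57% of all genes had groups that did not overlap. Its difference was -0.39 (95% interval -0.75 to -0.04, adjusted p = 0.50), and it was 1 of 2 members with an unadjusted p under 0.05. At 250 mg/kg all 10 members had an unadjusted p of 0.05 or more, and no interval reached beyond 0.57 in either direction. The slope over the dose ranks was 0.11 a step for Arntl (0.01 to 0.21, adjusted p = 0.15), and with limma 0 members passed (1 at an unadjusted p under 0.05) while 9.94% of all genes did. Without VPA 500 mg/kg array 028 the slope of Arntl was 0.15 with an adjusted p of 0.035.

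**Figure D3:**
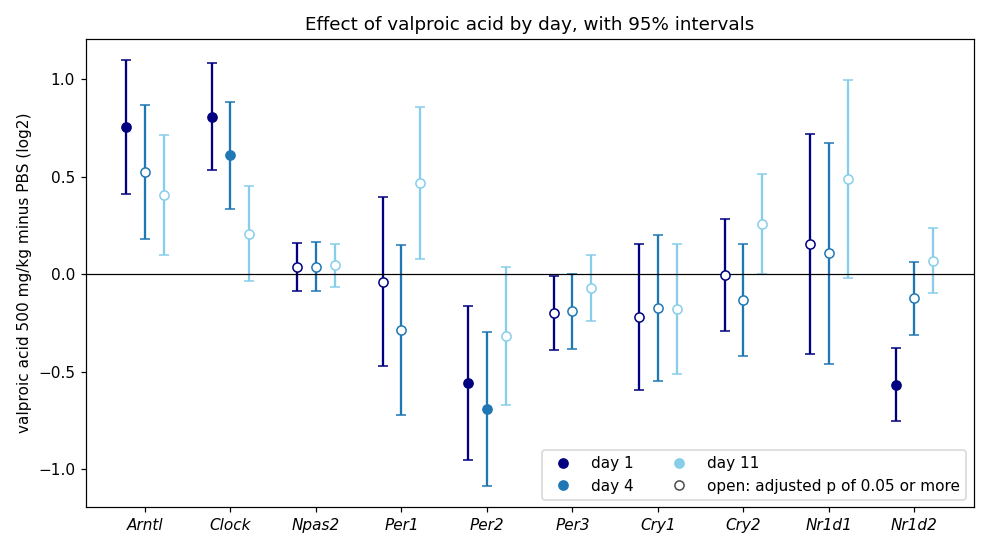
Difference between VPA 500 mg/kg and the PBS vehicle of the same day (log2) for each clock gene on day 1 (dark), day 4 (mid blue) and day 11 (light), with 95% intervals from the fit. Filled points passed an adjusted p of 0.05. Nr1d2 is -0.57 on day 1 and 0.07 on day 11, and Clock goes from 0.81 to 0.21.

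The effect of VPA differed between days for 2 members. The difference between day 4 and day 1 passed for Nr1d2 only (1 of 10 members, against 6.07% of all genes), by 0.44 (SE 0.13, adjusted p = 0.029, limma). This call was lost without any of 6 of 16 arrays (VPA 023, 079 and 092, PBS 003, 025 and 044), with values from 0.36 to 0.41 and adjusted p values up to 0.11, and in a model of these 16 arrays alone (adjusted p = 0.14). Between day 11 and day 1 it passed for Nr1d2 and Clock (2 of 10, against 12.3%).

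For Nr1d2 the day 11 effect exceeded that of day 1 by 0.64 (SE 0.13, adjusted p = 9.7e-05), and it passed without each of 18 arrays in turn. For Clock the day 11 effect was below that of day 1, by -0.60 (SE 0.18, adjusted p = 0.018, limma), and the call was lost without VPA array 028 or 079 or PBS array 032 or 082, with values from -0.51 to -0.49 and adjusted p values up to 0.077, and in a model of these 18 arrays alone (adjusted p = 0.092). In the PBS vehicle itself, the day 11 minus day 1 difference was 0.32 for Clock and -0.26 for Nr1d2, neither called. Between day 11 and day 4 no member passed (2.06% of all genes did), and 3 had an unadjusted p under 0.05. Output genes showed the day 11 to day 1 difference in the same fit, with 1.23 for Dbp (adjusted p = 6.7e-06), 4.71 for Rgs16 (adjusted p = 1e-08) and -1.89 for Nfil3 (adjusted p = 9e-07).

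With amiodarone, Cry1 on day 4 was the only member called against vehicle. At 60 mg/kg on day 4, 1 of 10 members passed, against 6.21% of all genes. Cry1 is a strong repressor of the ARNTL and CLOCK pair, and read 3.58, 3.51, 3.45 and 3.18 with AMD and 4.53, 4.44, 3.58 and 3.52 with PBS. The PBS arrays split into a high and a low pair, and the low pair lay among the AMD arrays.

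Cry1 fell by 0.59 on the log2 scale (SE 0.19, 1.501-fold lower, adjusted p = 0.043, limma). The call was lost without any of 6 of the 8 arrays (PBS 041 and 044, AMD 017, 053, 069 and 093), with differences from -0.64 to -0.41 and adjusted p values up to 0.28, and with sample numbers as a block, at -0.50 with an adjusted p of 0.15, and in a model of these 8 arrays alone (adjusted p = 0.18). Per1 read 5.31 to 5.61 with AMD, below every PBS array (5.69 to 6.07), where 11.9% of all genes had groups that did not overlap, with a difference of -0.34 (95% interval -0.77 to 0.10, adjusted p = 0.51). Clock differed by 0.33 (0.06 to 0.61, adjusted p = 0.16), Per2 by -0.43 (-0.83 to -0.04, adjusted p = 0.24), Cry2 by -0.37 (-0.66 to -0.08, adjusted p = 0.13) and Nr1d2 by -0.22 (-0.41 to -0.03, adjusted p = 0.19). Without PBS array 087, the lowest in Per2, Per2 differed by -0.67 with an adjusted p of 0.037.

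Beside these, where 6.21% of all genes were called, 2 of 4 output factors fell, Hlf by 0.62 (adjusted p = 0.0044) and Tef by 0.33 (adjusted p = 0.019). Bhlhe40 fell by 0.69 (adjusted p = 0.027) and Timeless rose by 0.29 (adjusted p = 0.047). Of 10 clock-controlled liver genes Gys2 fell by 0.43 (adjusted p = 0.033) and Insig2, an inhibitor of sterol synthesis, rose by 0.61 (adjusted p = 0.021, limma). In the other lists, Pdk4, a kinase induced in fasting, rose by 1.98 (adjusted p = 6.7e-11) and Tsc22d3, a glucocorticoid target, fell by 0.74 (adjusted p = 0.038). None of 6 Kupffer cell markers or 2 neutrophil markers passed, while Alas2 fell by 0.66 and 1 of 5 hepatocyte, 1 of 6 stellate cell and fibroblast and 1 of 2 exocrine pancreas markers fell. Their part in the clock differences was not tested.

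At 60 mg/kg on day 1 no member passed, against 0.796% of all genes, and 1 had an unadjusted p under 0.05, Per3 at 0.21 (95% interval 0.02 to 0.40, adjusted p = 0.49). At 60 mg/kg on day 11 no member passed either, against 7.05%. Per2 came nearest, reading 3.83, 3.49, 3.30, 3.24 and 3.16 with AMD and 4.38, 4.07, 3.81, 3.73 and 3.68 with PBS. The groups overlapped through the highest AMD array, 012.

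The difference of Per2 was -0.53 (95% interval -0.88 to -0.18, adjusted p = 0.053), and -0.64 with an adjusted p of 0.02 without array 012. That array had a neutrophil mean of 7.83, where the other 4 AMD arrays read 3.15 to 3.77, and also the lowest Clock of its group (4.94), and the part of these cells in its values was not tested. Per2 also passed without PBS array 002 or 032 (-0.58 and -0.59, adjusted p = 0.048 and 0.039). Cry1 differed by -0.39 (-0.73 to -0.06, adjusted p = 0.18) and Clock by 0.25 (0.01 to 0.49, adjusted p = 0.27).

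At 20 mg/kg on day 11, where 0.322% of all genes passed, 5 members had an unadjusted p under 0.05 and none passed after adjustment. Cry1 read 4.11 to 4.51 with AMD and 3.46 to 4.19 with PBS and differed by 0.59 (95% interval 0.25 to 0.92, adjusted p = 0.092). Without PBS array 073, the highest of its group, it differed by 0.69 with an adjusted p of 0.034. Per1 differed by 0.57 (0.18 to 0.96), Nr1d2 by 0.27 (0.10 to 0.44), Per3 by 0.21 (0.03 to 0.38) and Clock by -0.38 (-0.63 to -0.14), with adjusted p values from 0.14 to 0.31. For Clock and Cry1 the means of the 20 and 60 mg/kg groups lay on opposite sides of the PBS mean, with arrays that overlapped PBS in all 4 comparisons, and the contrast of the doses was not tested.

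At 6.7 mg/kg 0% of all genes passed, and the single member with an unadjusted p under 0.05 was Cry2 (-0.27, -0.53 to -0.02, adjusted p = 1). The dose trend of AMD on day 11 was called for 7.02% of all genes and for no member, with Per2 at -0.14 a step (-0.25 to -0.03, adjusted p = 0.12). The effect of AMD 60 mg/kg did not pass for any member between day 4 and day 1 (0.541% of all genes called), day 11 and day 1 (0.109%) or day 11 and day 4 (0%). At unadjusted p under 0.05 there were 4, 3 and 0 members in these 3 comparisons.

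Amiodarone and VPA at their high doses shared the PBS vehicle, so their treated arrays could be set against each other directly. On day 1, 5 of 10 members passed, against 16.2% of all genes. The members' median was 0.30 and that of all genes -0.01.

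Relative to VPA, amiodarone livers had lower Arntl (-0.74, SE 0.17, adjusted p = 0.00074) and Clock (-0.85, SE 0.14, adjusted p = 7.6e-07) and higher Per2 (0.57, SE 0.20, adjusted p = 0.036), Per3 (0.40, SE 0.10, adjusted p = 0.00085) and Nr1d2 (0.47, SE 0.09, adjusted p = 7.8e-05, all limma). Per3, dim on most arrays, read 3.30, 3.21, 3.10 and 3.09 with AMD and 2.86, 2.82, 2.71 and 2.70 with VPA. The groups did not overlap, nor did they for Clock and Nr1d2, as for 16.6% of all genes. Set against PBS on day 1, Per3 did not pass with either compound. In a model of these 8 arrays alone the adjusted p was 0.11 for Arntl and 0.095 for Per2. Without VPA array 023, Arntl differed by -0.43 with an adjusted p of 0.06 and Cry1 by 0.69 with an adjusted p of 0.0026, where it was 0.35 before. Per2 lost the call without AMD 001, 013 or 064 or VPA 079 or 080, at 0.39 to 0.59 and adjusted p values up to 0.24, and with sample numbers as a block, at 0.50 with an adjusted p of 0.085. Of the output factors, Dbp differed by 1.55 between AMD and VPA (adjusted p = 6.2e-13), and Nfil3 by -2.08 (adjusted p = 2.9e-12, limma). Lcn2 differed by -7.51 (adjusted p = 3.2e-08) and Mt2 by -6.43 (adjusted p = 1.2e-08), and both neutrophil markers were lower with AMD (median -1.85), with means of 3.05 to 5.02 with AMD and 3.83 to 6.91 with VPA. Their part in the clock differences was not tested.

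On day 4 no member passed, against 8.55% of all genes, and 3 had an unadjusted p under 0.05. Arntl differed by -0.50 (95% interval -0.85 to -0.16, adjusted p = 0.055), and without VPA array 008 by -0.69 with an adjusted p of 0.0067. Cry1 read 3.18 to 3.58 with AMD, below every VPA array (3.64 to 4.08), where 13.2% of all genes had groups that did not overlap. Its difference was -0.41 (-0.79 to -0.04, adjusted p = 0.20).

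On day 11 Cry2 alone passed (1 of 10, against 8.06%). It read 5.47, 5.26, 5.13, 5.08 and 5.05 with AMD and 5.99, 5.76, 5.67, 5.53 and 5.44 with VPA. The groups overlapped only by the highest AMD and the lowest VPA array. Cry2 was lower with AMD, at -0.48 (SE 0.13, adjusted p = 0.0083, limma), and at -0.40 with an adjusted p of 0.052 without VPA array 028. Arntl differed by -0.44 (-0.75 to -0.13, adjusted p = 0.065), and passed without VPA array 028 (-0.58, adjusted p = 0.012) or 078 (-0.49, adjusted p = 0.048).

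Tetracycline gave no called member in its 5 comparisons. The shares of all genes called were 0.65% at 133 mg/kg on day 1, 0% on day 4 and 0% on day 11, 0% at 14.8 mg/kg and 0.0243% at 44 mg/kg. At unadjusted p under 0.05 there were 3, 2, 0, 0 and 5 members. Per1 at 133 mg/kg on day 4 had the smallest adjusted p of these, reading 6.09, 5.83, 5.29 and 4.92 with TET and 4.94, 4.88, 4.86 and 4.51 in the vehicle, a difference of 0.74 (95% interval 0.30 to 1.17, adjusted p = 0.22). That vehicle group held the lowest Per1 mean of the series.

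On day 1 at 133 mg/kg Nr1d1 read 3.89 to 4.50, below every vehicle array (4.60 to 5.13), where 6.87% of all genes had groups that did not overlap. It differed by -0.58 (95% interval -1.15 to -0.02, adjusted p = 0.42). At 44 mg/kg on day 11 it read 3.97, 3.89, 3.84, 3.24 and 3.11, below the vehicle range of 4.02 to 4.82, where 1.97% of all genes did not overlap. There it differed by -0.77 (-1.28 to -0.26, adjusted p = 0.24). The other members with an unadjusted p under 0.05 at 44 mg/kg were Clock, Per1, Cry2 and Nr1d2, all with negative differences from -0.55 to -0.18. The dose trend (0% of all genes called) and the differences of the TET effect between day 4 and day 1 (0%), day 11 and day 1 (0%) and day 11 and day 4 (0%) gave no called member. At unadjusted p under 0.05 they gave 0, 1, 1 and 1 members, Per1 at 1.05 and Clock at 0.37 against day 1, and Per1 at -1.06 for day 11 against day 4.

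The vehicles show how far clock genes moved with no drug. Between days 1 of 60 tests of a member passed, Per1 in the TET vehicle on day 4 against day 1 (1 of 10 members, against 0.784% of all genes). Per1, which is also an immediate target of glucocorticoid and CREB signalling, read 6.26, 6.14, 6.03 and 5.84 on day 1 and 4.94, 4.88, 4.86 and 4.51 on day 4. The days did not overlap, as for 7.75% of all genes.

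Per1 fell by 1.27 on the log2 scale (SE 0.22, 2.42-fold lower, adjusted p = 0.001, limma). This is the largest called difference of any member in the 39 comparisons, and it passed without each of the 8 arrays in turn and under all 7 other settings. By day 11 Per1 read 5.28 to 6.27, above every day 4 array, where 2.25% of all genes had groups that did not overlap. Its difference was 1.02 (95% interval 0.61 to 1.43) with an adjusted p of 0.079, at 0% of all genes called and 2 members with an unadjusted p under 0.05. It passed without TET vehicle array 035 or 042, at 1.05 and 1.15 (adjusted p = 0.033 and 0.013). Day 11 against day 1 (0%) gave no called member, and none with an unadjusted p under 0.05.

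In the lists set beside the clock, 0 of the 4 output factors, 0 of 10 clock-controlled liver genes, 0 of 10 glucocorticoid-responsive genes and 0 of 8 immediate early genes passed between day 1 and day 4 of the TET vehicle, with medians of -0.29, -0.06, -0.12 and -0.16 against 0.01 over all genes. Only 0.784% of all genes passed in this comparison, so counts of 0 in short lists lie near that share. No cell type marker passed either.

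In the PBS vehicle no member passed between day 4 and day 1 (0.0121% of all genes), day 11 and day 1 (0%) or day 11 and day 4 (0%). At unadjusted p under 0.05 there were 2, 2 and 3 members. Per1 was 0.52 higher on day 4 than on day 1 (95% interval 0.08 to 0.95, adjusted p = 0.77), opposite in sign to the TET vehicle over the same days, a contrast that was not tested. Clock was 0.40 higher on day 11 than on day 4 (0.14 to 0.66, adjusted p = 0.34) and Nr1d2 differed by -0.30 (-0.48 to -0.12, adjusted p = 0.30).

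Between the vehicles of a day no member passed on day 1 (0.0911% of all genes), day 4 (0.0121%) or day 11 (0%), and 4, 2 and 3 members had an unadjusted p under 0.05. Per1 was among them on each day, at 0.79 (95% interval 0.35 to 1.22), -1.002 (-1.44 to -0.57) and 0.67 (0.28 to 1.06), TET vehicle minus PBS vehicle, with adjusted p values of 0.13, 0.07 and 0.25. On day 1 the vehicles did not overlap in Per1 and Cry1, as for 5.39% of all genes. On day 4 they did not overlap in Per1, as for 4.5% of all genes. Without TET vehicle array 035 the day 4 difference of Per1 was -1.03 with an adjusted p of 0.046. Nr1d1 differed by 0.85 on day 1 (0.29 to 1.42, adjusted p = 0.24).

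**Figure D4:**
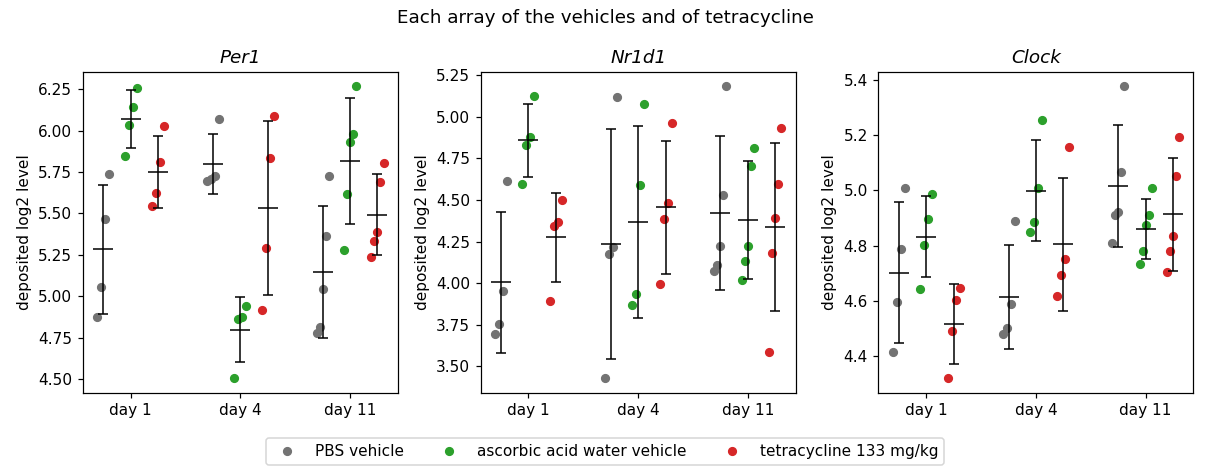
Deposited log2 level of Per1, Nr1d1 and Clock on each array of the PBS vehicle (grey), the water and ascorbic acid vehicle of TET (green) and TET 133 mg/kg (red), by day. Points are arrays, with the mean and SD of 4 or 5 arrays. Per1 in the TET vehicle lies between 5.84 and 6.26 on day 1 and between 4.51 and 4.94 on day 4.

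Within groups, several members varied together. With the group means removed, 9 of the 45 pairs of members were correlated over 95 arrays (two-sided permutation test within groups, 100000 resamples, Benjamini-Hochberg over the 45 pairs). The count was 19 after quantile normalization, 15 after centring each array on its median and 18 with sample numbers as a block. No such share was computed for pairs of other genes, and both genes of a pair share their RNA and array quality. Whether these pairs are closer than pairs of other genes was therefore not tested. Clock ran opposite to 2 Per genes, with r = -0.57 and rho = -0.55 for Per2 and r = -0.54 and rho = -0.51 for Per3. Each p was 1e-05, the smallest these resamples can give (adjusted p = 0.00015 for r and 0.00022 for rho). Per2 and Per3 ran together (r = 0.46, p = 1e-05, rho = 0.43, p = 9e-05, adjusted p = 0.00015 and 0.001). Without the 2 arrays farthest from the median of the first gene, r was -0.54, -0.48 and 0.40 in these 3 pairs.

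Nr1d1 ran with Clock (r = 0.40, p = 0.00025, rho = 0.36, p = 0.0013, adjusted p = 0.0022 and 0.0094) and against Per2 (r = -0.53, p = 3e-05, rho = -0.46, p = 8e-05, adjusted p = 0.00034 and 0.001) and Per3 (r = -0.32, p = 0.0092, rho = -0.31, p = 0.0091, adjusted p = 0.046 and 0.041). Without the 2 farthest arrays r was 0.40, -0.46 and -0.28. The pair of Nr1d1 and Nr1d2 just missed the threshold (r = 0.28, p = 0.019, rho = 0.24, p = 0.032, adjusted p = 0.057 and 0.086, 0.31 without the 2 arrays). Nr1d2 ran with Cry2 (r = 0.38, p = 0.00084, rho = 0.41, p = 0.00029, adjusted p = 0.0054 and 0.0026, 0.45 without the 2 arrays) and Per1 (r = 0.36, p = 0.00057, rho = 0.35, p = 0.0016, adjusted p = 0.0043 and 0.01, 0.34 without them). Clock and the dim Npas2 had r = 0.34 (p = 0.0018, rho = 0.31, p = 0.0067, adjusted p = 0.0099 and 0.037, 0.28 without them).

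The days did not all show these relations. Over the 20 arrays of day 1, the 20 of day 4 and the 55 of day 11, Clock and Per2 had r of -0.04, -0.78 and -0.66, Clock and Per3 -0.23, -0.61 and -0.62, and Per2 and Nr1d1 -0.36, -0.70 and -0.49. Per2 and Per3 had 0.07, 0.36 and 0.60, Clock and Nr1d1 0.14, 0.60 and 0.39, and Clock and Npas2 0.24, 0.07 and 0.47. Per3 and Nr1d1 had 0.02, -0.55 and -0.35, Cry2 and Nr1d2 0.58, 0.08 and 0.38, and Per1 and Nr1d2 0.70, 0.04 and 0.30. Taken within a day, 1 pair passed on day 1, 1 on day 4 and 12 on day 11. In the 26 vehicle arrays alone, as a description, r was -0.52 for Clock and Per2, -0.49 for Clock and Per3, -0.52 for Per2 and Nr1d1, 0.39 for Per2 and Per3, 0.35 for Clock and Nr1d1, 0.36 for Cry2 and Nr1d2 and 0.44 for Per1 and Nr1d2. It was near 0 for the other called pairs, at 0.06 for Per3 and Nr1d1 and 0.05 for Clock and Npas2.

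**Figure D5:**
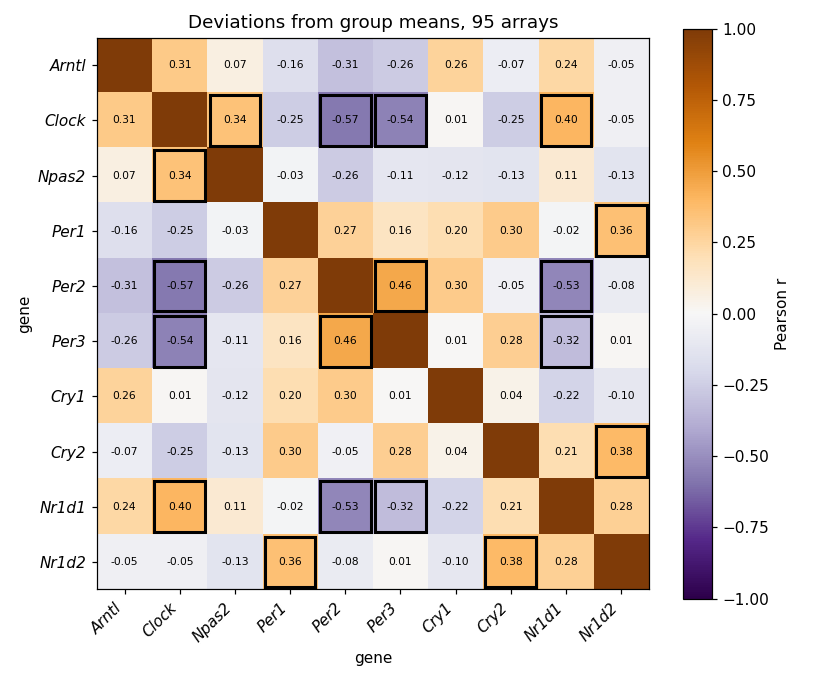
Pearson r between the deviations of each pair of clock genes from their group means over 95 arrays, from -1 (purple) to 1 (orange). Black frames mark the 9 pairs with an adjusted p under 0.05, and the most negative value is -0.57 for Clock and Per2.

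The genes most like each member, by r of the same deviations over all 16464 genes and 95 arrays, are given as a description. For Arntl the highest were Slc45a3 (0.56), Pnkd (0.54), Fabp4 (0.51), Ahctf1 (0.51) and Lgalsl (0.49), and the lowest were Dbp (-0.56), Larp6 (-0.45), Ppat (-0.44), Mtmr10 (-0.44) and Khdrbs1 (-0.44). Over the 21 group means the highest for Arntl were Prg4 (0.92), St3gal1 (0.92), Rab17 (0.92), Orm2 (0.91) and Lbp (0.91), of which Orm2 and Lbp are acute phase genes, and the lowest were Wee1 (-0.92), Ccnd1 (-0.89), Dbp (-0.88), Pcsk4 (-0.87) and Usp2 (-0.87). Dbp was thus among the 5 lowest on both counts. The Arntl means were highest in the VPA 500 mg/kg groups (3.46, 3.19 and 3.11 on days 1, 4 and 11). The next was 2.88 with VPA 125 mg/kg on day 11, so the r values over group means largely follow the VPA 500 mg/kg groups. Of the output factors, Dbp and Tef ran opposite to Clock over the arrays, with r of -0.46 and -0.44, while the r of Hlf was weak at -0.14. These r values were not tested.

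For the other members the 3 highest over the arrays were Crip2 (0.61), Insig2 (0.58) and Trim2 (0.57) for Clock, and Muc20 (0.41), Shank1 (0.40) and Cep164 (0.37) for Npas2. They were Usp2 (0.63), Tob2 (0.62) and Gys2 (0.57) for Per1, Nrg4 (0.64), Nmrk1 (0.58) and Rhobtb1 (0.58) for Per2, and Dmac2 (0.52), Nlrc5 (0.51) and Slc37a4 (0.49) for Per3. For Cry1 they were Ces1d (0.63), Nr1i3 (0.57) and Nhlrc2 (0.56), and for Cry2 Tns2 (0.61), Hjurp (0.59) and Rab17 (0.58). The receptors had Trib3 (0.65), Cldn1 (0.58) and Smagp (0.57) for Nr1d1 and Tdp2 (0.66), Fnip1 (0.63) and Spata13 (0.61) for Nr1d2. In each of these correlations both genes were read on the same arrays, and so share their RNA and array quality.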

How the data were processed

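RNA of the central part of the left lateral liver lobe was hybridised to Affymetrix arrays with 3′ labelling, per the labels' protocols. The authors deposited log2 values after RMA, per the submitters' processing notes. The RMA version and probe set annotation are not given in the sources used here. Of 17306 probe sets, 16464 had 1 gene symbol, 0 several and 842 none, and all 16464 matched RefSeq by Entrez number. Array medians were 3.08 to 3.15, arrays correlated at 0.977 to 0.996, no pair was identical, and VPA 250 mg/kg array 067 had the lowest median correlation with its group (0.9868). The number of arrays limits the precision.

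A group-means model was fitted with limma 3.58.1 in R 4.3.3 to all 95 arrays, with moderated tests and Benjamini-Hochberg adjustment over all 16464 genes, for 39 contrasts. All arrays share 1 estimate of the spread a gene (74 residual degrees of freedom). The fit and the correlations were tested on simulated data. Intervals are 95%. Groups were read from the sample titles. Alternatives were other models, normalizations and filters, and leaving out each array. Leaving out array 067 and using sample-number blocks, 2 alternatives for the correlations, were chosen after seeing the data. The text names all 10 members, up to 3 called genes of a list (those with the largest change) in comparisons with a called member, and the genes most like each member (10 on each scale for Arntl, 3 for the others). Members, lists and markers were chosen with earlier results of these data known. Unnamed probe sets were not used here.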

Additional observations from a re-analysis of the deposited data

Results flagged for a closer look

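In 7 of the 210 combinations of a member and a group (3.33%) 1 array stood apart from the rest of its group by Dixon's criterion. Chance alone gives about 1 in 20. Cry1 read 4.65 on VPA 500 mg/kg day 1 array 023, where the next array read 3.43. Per1 read 6.07 on PBS vehicle day 4 array 041 (next 5.73) and 4.61 on AMD 60 mg/kg day 11 array 033 (next 5.18). Nr1d1 read 4.94 on VPA 125 mg/kg day 11 array 019 (next 4.40). Per2 read 3.93 on TET 133 mg/kg day 1 array 096 (next 4.23), and Nr1d2 read 7.79 on array 011 of the same group (next 8.22). Npas2 read 2.37 on VPA 500 mg/kg day 11 array 028 (next 2.59), a level near background.

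The effect of VPA 500 mg/kg differed between days, by the test of the difference itself, for Nr1d2 between day 4 and day 1 (0.44), for Nr1d2 between day 11 and day 1 (0.64) and for Clock between day 11 and day 1 (-0.60). Only the day 11 to day 1 difference of Nr1d2 passed without each array in turn and under all 7 other settings. The call of Nr1d2 for day 4 and that of Clock were lost in some of these (limma, adjusted p up to 0.14 and 0.092). On day 1 Nr1d2 was below PBS on 4 of 4 arrays, and Clock was above PBS on 4 of 4.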

How the results depend on the processing

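Counts of called members were recomputed for all 39 comparisons under 7 other settings. With only the arrays compared in the model, the count was 0 for AMD 60 mg/kg day 4 (1 before), 2 for VPA 500 mg/kg day 1 (4 before), 1 for VPA 500 mg/kg day 4 (2 before), 1 for the vehicles on day 4 (0 before), 0 for the VPA effect of day 4 minus day 1 (1 before), 1 for that of day 11 minus day 1 (2 before) and 3 for AMD minus VPA on day 1 (5 before). With array quality weights it was 2 for AMD 60 mg/kg day 4, 1 for AMD 60 mg/kg day 11, 1 for VPA 500 mg/kg day 11, 1 for TET vehicle day 11 minus day 4, 1 for the vehicles on day 4, 0 for the VPA effect of day 4 minus day 1, 1 for AMD minus VPA on day 4 and 2 on day 11. With genes below the median gene left out, which removes Arntl, Npas2 and Per3 and tests 8232 genes, it was 1 for AMD 60 mg/kg day 11, 1 for TET vehicle day 11 minus day 4, 1 for the vehicles on day 4 and 3 for AMD minus VPA on day 1. Quantile normalization gave 1 for AMD 60 mg/kg day 11, and sample-number blocks 0 for AMD 60 mg/kg day 4. Centring and a variance trend moved no count by over 1.5 times.

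Leaving out 1 array at a time, counts ran from 0 to 2 for AMD 60 mg/kg day 4, 0 to 3 for VPA 500 mg/kg day 4, 0 to 1 for AMD 20 and 60 mg/kg and VPA 500 mg/kg on day 11, TET vehicle day 11 minus day 4, the vehicles on day 4, the VPA trend, the VPA effect of day 4 minus day 1 and AMD minus VPA on day 4, and 1 to 2 for the VPA effect of day 11 minus day 1 and AMD minus VPA on day 11. The cause was not tested. No paired analysis was possible because no groups share replicate numbers.

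Of 45 correlations 9 passed, 19 after quantile normalization, 15 after centring, 18 with sample-number blocks and 11 without array 067. Within day 1 and day 4 there was 1 each, with 20 arrays, and on day 11 there were 12. The correlation of Per3 and Nr1d1 changed sign within day 1, at 0.0163. Dim probe sets limit Arntl, Npas2 and Per3.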
